A study of Mus musculus with 6 samples.

Results

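The extracellular metalloproteinase families and their tissue inhibitors were examined in RNA-seq of the mouse uterus with and without *Foxo1*. The genes were taken by symbol: every matrix metalloproteinase (*Mmp*), *Adam*, *Adamts* and *Adamtsl* gene, *Timp1* to *Timp4*, and *Reck*. The rule found 85 of the 23420 genes in the table, namely 23 MMPs, 33 ADAMs, 19 ADAMTS, 5 ADAMTS-like genes and 5 inhibitors. Control *Foxo1f/f* females carried the floxed *Foxo1* allele without Cre, and *Foxo1d/d* females were *PgrCre/+ Foxo1f/f*, with Cre driven from the *Pgr* locus and therefore active in PGR-expressing cells. All were C57BL/6J mice of 8 weeks, mated with vasectomized males and taken at pseudopregnancy day 4.5, so no embryo was present. Each genotype had 3 libraries, each from a pool of uteri of 2 mice. The Cre allele was present in *Foxo1d/d* only, so an effect of the allele itself and an effect of losing *Foxo1* cannot be told apart.

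The values analysed are the mean counts of each genotype, so no spread between the 3 libraries could be computed and no test was made. Genes are called higher or lower where the ratio of mean counts plus a pseudocount of 1, after scaling to the genotype totals, was at least 1.5-fold. The 95% interval given beside a log2 ratio is a counting interval from the summed reads and covers counting error only. Paired values without a genotype are for *Foxo1f/f* first and *Foxo1d/d* second. The mean total counts were 26125014 and 27257963. *Foxo1* itself averaged 3941 and 1456 counts, a 2.82-fold difference in the direction the labels give. The RNA came from whole uterus, in which fewer cells of a type and less RNA per cell cannot be told apart. Stromal and smooth muscle markers were abundant, summing to 3948 and 5447 CPM (mean counts scaled to the genotype total) in *Foxo1f/f*, as the uterine label requires.

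MMPs are zinc-dependent enzymes, secreted or membrane-bound, that are made as inactive precursors and cut collagens, laminins and other matrix or signaling proteins. ADAMs are membrane proteins that shed growth factors and receptors from cell surfaces, and many members of that family lack a working catalytic site or serve sperm function. ADAMTS enzymes are secreted and process procollagens, proteoglycans, fibrillin-associated proteins and von Willebrand factor, while ADAMTS-like proteins share the accessory domains without the protease. TIMPs and the membrane-anchored RECK inhibit many of these enzymes. In the uterus, the balance of these enzymes and inhibitors is studied in stromal remodeling, decidualization and trophoblast invasion.

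Most of these transcripts differed little between the genotypes, and the members past 1.5-fold were mostly those of low abundance. No read was counted for 10 of the 85 genes. A count of 0 does not show absence, since an expected count of up to about 3 summed reads in a genotype can still give 0. Those 10 and 15 more, 25 in all, averaged fewer than 10 counts over the genotypes, the minimum for a call. Among the 60 others, 5 were at least 1.5-fold higher in *Foxo1d/d* (*Adamts16*, *Adamtsl2*, *Adamts20*, *Mmp27* and *Adam12*) and 4 were at least 1.5-fold lower (*Mmp7*, *Adam28*, *Adamts13* and *Adam21*). These counts are 8.33% and 6.67% of the 60. Over all 15696 genes that reached this minimum, 5.43% were higher and 3.51% were lower. Either way it was 15.0% of the members and 8.94% of all genes. At 2-fold, 3 members were higher and 2 lower, beside 1.99% and 1.4% of all genes. A count of 5 or 4 among 60 genes is small, and nothing particular to the families is read from its difference to that background. The median log2 ratio, with *Foxo1d/d* in the numerator, was -0.08 over the 60 members and 0.02 over all genes. Of the members, 37 were below 0 and 23 above, beside 7047 and 8649 of all genes that reached the minimum. The share within 0.25 of 0 on the log2 scale was 56.7% of the members and 70.9% of all genes. The 9 called members had a median mean count of 139 over both genotypes, against 906.5 for the 60.

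**Figure D1:**
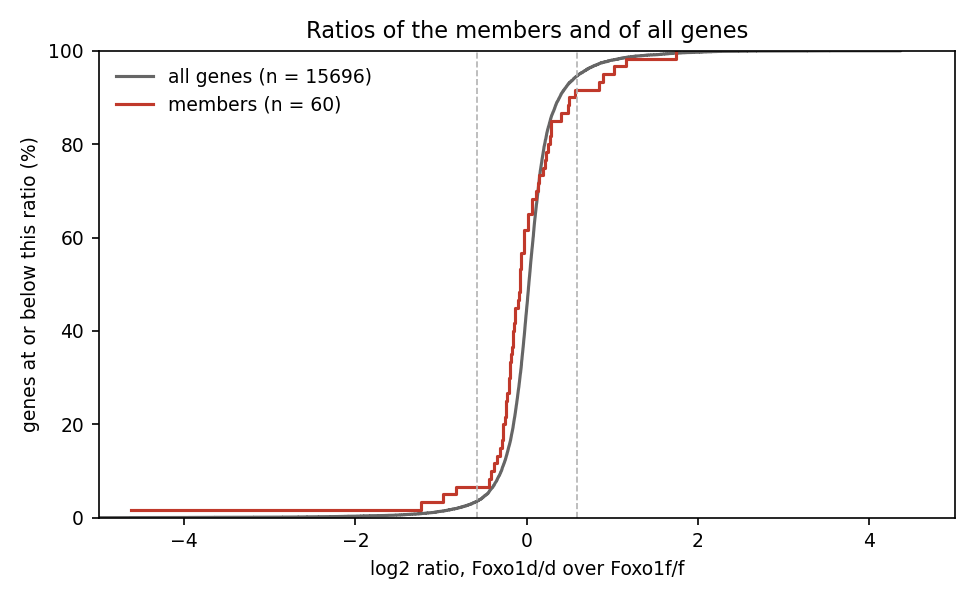
Cumulative share of genes (vertical axis, percent) at or below each log2 ratio (*Foxo1d/d* to *Foxo1f/f*, horizontal axis) for the 60 members above the count minimum and for all 15696 such genes, with dashed lines at 1.5-fold. The lowest member, *Mmp7*, stands at -4.62, and the curve of the members lies above that of all genes below 0, with a median of -0.08 against 0.02. The axis leaves out the genes under -5.

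Abundance was set by a small number of genes. Levels between genes are compared as CPM-scaled mean counts per kb of exon, that is, CPM divided by the exonic length in kb. On that scale 24 members reached 10 or more in *Foxo1f/f*, 24 lay from 1 to under 10, 25 lay above 0 and under 1, and 12 were at 0. Of the 9 called members, only *Adam12* belonged to the 24 most abundant genes. The log2 ratios of those 24 ran from -0.41 to 0.84. Among the 60 members above the count minimum the counting interval excluded 0 for 51, of which 18 were above 0 and 33 below. Even small differences thus exceeded counting error at these depths. The same count was not made over all genes, so nothing particular to the members is read from it. The 0 is set by the scaling to totals, under which the median of all genes was 0.02. Differences between pools are not part of the counting interval.

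**Figure D2:**
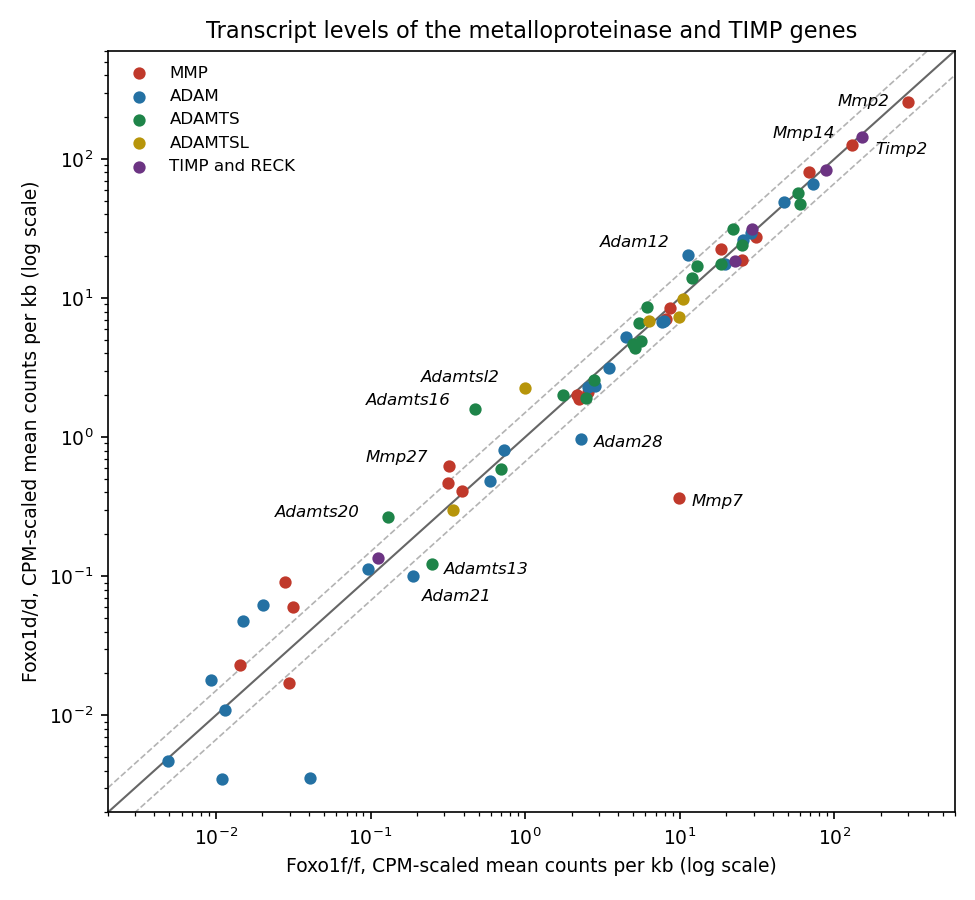
Level of each member in *Foxo1f/f* (horizontal axis) and *Foxo1d/d* (vertical axis), both in CPM-scaled mean counts per kb on log scales; one point is one gene, colored by family, the solid line marks equal levels and the dashed lines mark 1.5-fold. Members at 0 in either genotype are not shown. *Mmp7* lies far below the line, at 9.83 against 0.366, while *Mmp2*, *Timp2* and *Mmp14* at the upper end lie close to it.

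Among the MMPs, *Mmp7* was the gene with by far the largest ratio. *Mmp7* encodes matrilysin, a small secreted MMP typical of glandular epithelia. It averaged 274 counts in *Foxo1f/f* but 10.67 in *Foxo1d/d*, from 823 and 32 summed reads. The log2 ratio was -4.62 (95% counting interval -5.30 to -4.24), or 26.8-fold lower without the pseudocount. *Mmp7* was ninth from the bottom of the 15696 genes (rank 9). Its share of the summed MMP level was 1.62% and 0.0659%. Of the 5 uterine gland markers found, 4 were also at least 1.5-fold lower (*Prss28*, *Spink3*, *Prss29* and *Ttr*), beside 3.51% of all genes. The list summed to 853 and 43.2 CPM. No gland marker was at 0, and *Foxa2*, a transcription factor of the glands, had a log2 ratio of 0.04. The paper counted glands in pregnant females at an earlier day and reported no difference in their number between the genotypes. The part of the glands in the *Mmp7* value was not tested.

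*Mmp7* closes a row of 10 MMP genes on chromosome 9 (chr9:7272514-7699585, GRCm38.p6), where its neighbors did not share its difference. The row holds the stromelysins *Mmp3* and *Mmp10*, which cut proteoglycans, laminin and other MMP precursors. *Mmp3* averaged 872 and 1111 counts, a log2 ratio of 0.29 (0.21 to 0.36). *Mmp10* had 17.67 and 19.33, with an interval of -0.49 to 0.63 that includes 0. *Mmp27*, a little-studied MMP that also lies in this row, averaged 14 and 28 counts, a log2 ratio of 0.89 (0.39 to 1.51). Thus the 4 genes of the row above the count minimum included one far lower, one higher and a pair within 1.5-fold. The other 6 genes were almost silent. *Mmp1a*, *Mmp1b* and *Mmp20* had no read, *Mmp13* and *Mmp8* had at most 4 counts on average, and *Mmp12*, the macrophage elastase, had 8 summed reads in *Foxo1f/f* and 27 in *Foxo1d/d*. The collagenases *Mmp1a*, *Mmp1b*, *Mmp8* and *Mmp13*, the enzymes that cut intact fibrillar collagen most directly, therefore all lay below the minimum count.

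The sequences just upstream of the 4 measured genes of this row are shown because neighboring MMP promoters are known for AP-1 sites close to the start, and the 4 genes differed in ratio. Each is the 120 bases before the RefSeq start, 5′ to 3′ on the plus strand, with the AP-1 letters TGANTCA in capitals; positions are chr9:7691970-7692089 for *Mmp7*, chr9:7502222-7502341 for *Mmp10*, chr9:7445702-7445821 for *Mmp3* and chr9:7571276-7571395 for *Mmp27* (RefSeq, GRCm38.p6).
Mmp7: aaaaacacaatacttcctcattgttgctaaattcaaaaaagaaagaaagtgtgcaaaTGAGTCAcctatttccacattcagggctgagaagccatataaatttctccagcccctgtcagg
Mmp10: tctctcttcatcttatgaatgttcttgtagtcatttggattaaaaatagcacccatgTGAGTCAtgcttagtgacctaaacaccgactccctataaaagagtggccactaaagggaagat
Mmp3: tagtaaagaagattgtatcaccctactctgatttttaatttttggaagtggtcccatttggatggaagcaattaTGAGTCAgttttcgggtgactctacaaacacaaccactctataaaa
Mmp27: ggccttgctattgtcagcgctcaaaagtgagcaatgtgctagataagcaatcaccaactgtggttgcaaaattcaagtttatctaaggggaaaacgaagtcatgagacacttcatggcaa
The motif stood at -63 to -57 from the start in both *Mmp7* and *Mmp10*, and at -46 to -40 in *Mmp3*. No match was found in the *Mmp27* window. A second RefSeq start of *Mmp7* had no match in its window either.

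Windows from 250 bases before to 50 after the start were held for 54 of the 85 members, 59 windows in all. They covered 6 of the 9 called members, and *Adam12*, *Adam28* and *Adamts16*, which had no window, were not searched. On either strand TGANTCA, which reads alike on both strands, was found in 8 of the 10 genes of the chromosome 9 row, the exceptions being *Mmp8* and *Mmp27*. It was in 38.1% of the MMP windows and in 7.81% of the 32851 windows of the reference. The motif was also in 26.3% of the ADAM windows, 5 of 19. None of the 10 ADAMTS, 4 ADAMTS-like and 5 inhibitor windows held it. Among members above the count minimum the share was 9.52%, against 5.63% for all such genes, so the matches lay mostly at genes that were hardly read in this tissue. The forkhead core GTAAACA (with its reverse complement TGTTTAC), the letters bound by FOXO factors, was in 8.47% of the member windows and 3.65% of all windows. Above the count minimum it was in 9.52% of the member windows, 4 of 42, and in 2.55% of all such windows. Counts of 5 and 4 windows are small, and nothing particular to the members is read from these shares. The 5 genes with a forkhead match were *Adam8*, *Adam19*, *Adamts13*, *Mmp10* and *Mmp13*, of which *Adamts13* alone was called, with the match at 16 to 22 bases after the start. Neither *Mmp7* window held a forkhead match. These matches are descriptions of letters and say nothing of binding.

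**Figure D3:**
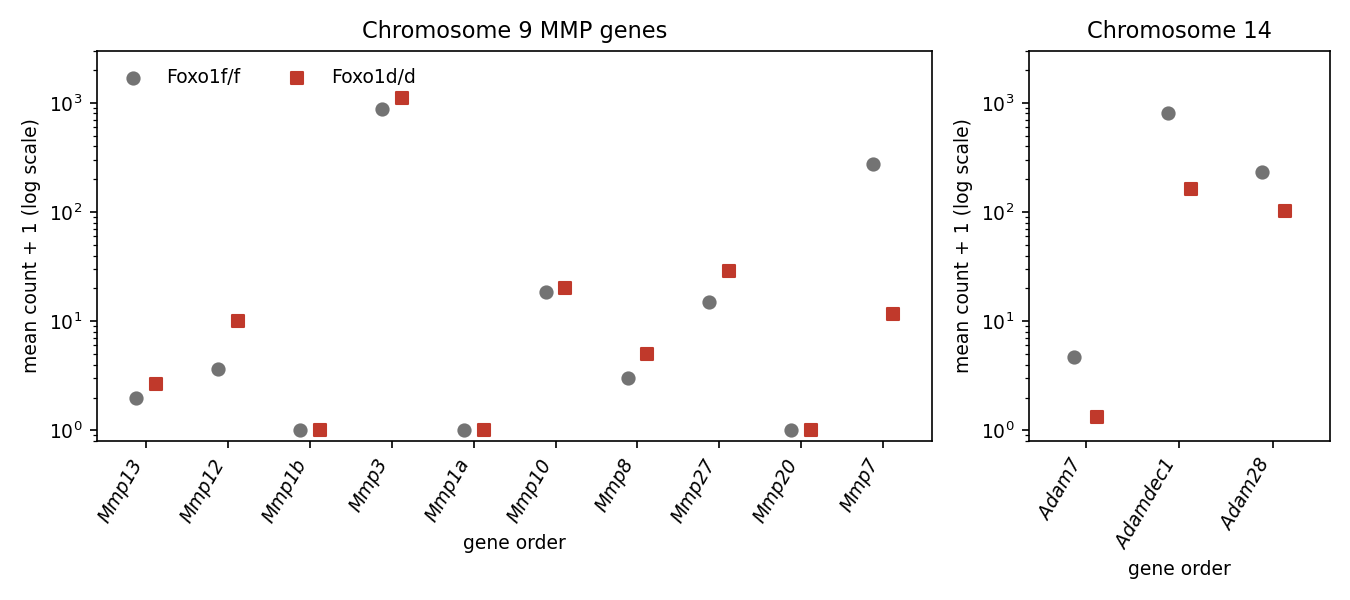
Mean count plus 1 (vertical axes, log scale) in *Foxo1f/f* (gray circles) and *Foxo1d/d* (red squares) for the 10 MMP genes of the chromosome 9 row and for *Adam7*, *Adamdec1* and *Adam28* on chromosome 14, in their order along the chromosome. On chromosome 9 a far lower *Foxo1d/d* value, 10.67 against 274, is seen for *Mmp7* alone, and on chromosome 14 *Adamdec1* and *Adam28* are lower in *Foxo1d/d*, while *Adam7*, with 11 and 1 summed reads, did not reach the count minimum.

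The abundant MMPs were *Mmp2*, *Mmp14* and *Mmp23*, and the cells that made their transcripts were not examined. *Mmp2*, gelatinase A, had the highest level of all 85 genes, a level of 300 and 256 from mean counts of 24116 and 21442 (log2 ratio -0.23, -0.25 to -0.22). It made up 49.4% and 46.0% of the summed MMP level. *Mmp14*, the membrane-type MMP that activates MMP2, stood at 129 and 127, a log2 ratio of -0.03. *Mmp23* stood at 68.0 and 81.0, with a log2 ratio of 0.25. The gene span of *Mmp23* overlaps that of *Mib2*, which had 2839 and 2459 mean counts. Whether their exons overlap, or reads were shared where the counting ignored strand, was not examined. *Mmp2*, *Mmp14* and *Mmp23* held 82.0% of the family's level in *Foxo1f/f*, and none of them was past 1.5-fold. The other gelatinase, *Mmp9*, was sparse at 2.16 and 2.02.

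Other MMPs showed intermediate values. *Mmp11*, stromelysin 3, an MMP of stromal fibroblasts, had mean counts of 1502 and 1176 (log2 ratio -0.41, -0.48 to -0.35). The membrane-anchored *Mmp25*, known from leukocytes, was nearest to the threshold from inside, with 37.33 and 58.00 and a log2 ratio of 0.56 (0.22 to 0.93). *Mmp15*, *Mmp16*, *Mmp17*, *Mmp19* and *Mmp28* had log2 ratios from -0.27 to -0.04. Of the 15 MMPs above the count minimum, 1 was higher, 1 was lower and 13 were neither. The summed level of all 23 MMPs was 607 and 556, a difference that lay mostly in *Mmp2*.

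Among the ADAMs, *Adam12* and *Adam28* stood apart in opposite directions. *Adam12* encodes meltrin alpha, a protease of mesenchymal cells and placenta that cuts IGF-binding proteins and EGF-family ligands. Its mean counts were 2262 and 4232 (log2 ratio 0.84, 0.80 to 0.89), and its level was 11.3 and 20.2. Among the 9 ADAM proteases of somatic tissues its share of the summed level was 5.14% and 9.15%. Behind these means stood 6785 and 12696 summed reads, the deepest of the called members.

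*Adam28*, a protease of epithelia and lymphocytes, had mean counts of 232 and 102 (log2 ratio -1.24, -1.44 to -1.05). It lies on chromosome 14 beside *Adamdec1*, a secreted relative with a short disintegrin-like part, and *Adam7*, known from the epididymis, within chr14:68497336-68655889. *Adamdec1*, which is not a member by its symbol, had 805 and 163 (log2 ratio -2.36, -2.51 to -2.22). *Adam7* had 11 summed reads in *Foxo1f/f* and 1 in *Foxo1d/d*, below the minimum count. The 2 of these neighbors above the count minimum, *Adam28* and *Adamdec1*, were thus both lower in *Foxo1d/d*.

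The principal sheddases were close to equal. *Adam10*, which starts Notch cleavage, had a log2 ratio of 0.06 and levels of 46.9 and 48.9. *Adam17*, which sheds TNF and EGF-family ligands, had 0.02 with levels of 25.8 and 26.1. *Adam15*, the most abundant ADAM, had -0.13 with levels of 72.4 and 66.0, and *Adam9* had 0.01 with 28.9 and 29.2. All 4 lay within 0.25 of 0 on the log2 scale. *Adam8*, *Adam19* and *Adam33* had log2 ratios from -0.20 to 0.22, and the catalytically inactive *Adam11*, *Adam22* and *Adam23* had ratios from -0.18 to 0.15. The ADAM levels summed to 238 and 237.

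The 21 ADAMs known mainly from testis or epididymis were sparse or silent. No read was counted for 7 of them, and 17 lay below the minimum count. The other 4, *Adam1a*, *Adam4*, *Adam5* and *Adam21*, all had log2 ratios below 0. *Adam21* was called lower on 43 and 24 summed reads (mean counts 14.33 and 8.00, log2 ratio -0.83, -1.69 to -0.15), and passed the minimum count only through *Foxo1f/f*. The gene span of *Adam4* overlaps that of *Cox16*, which had mean counts of 577 and 680. Whether the 38.67 and 33.00 counts of *Adam4* hold reads of *Cox16* where strand was ignored was not examined.

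In the ADAMTS family *Adamts16* had the largest ratio. *Adamts16* encodes a protease studied in kidney, ovary and testis. Its mean counts were 61.33 and 216 (log2 ratio 1.74, 1.52 to 2.00), 3.38-fold higher, and it ranked 81 from the top of the 15696 genes. Its level stayed low, at 0.471 and 1.59. *Adamts20*, a versican-cleaving enzyme known for melanoblast migration, had 28.67 and 62.00 (log2 ratio 1.03, 0.68 to 1.44). *Adamts13*, which cuts von Willebrand factor, was lower, with 31.67 and 16.33 (log2 ratio -0.98, -1.54 to -0.50). None of these 3 was abundant, and the intervals of *Adamts20* and *Adamts13* are wide.

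The proteoglycan-cleaving ADAMTS enzymes, which act on versican and aggrecan, had a median log2 ratio of 0.19 over 7 genes, 4 of them above 0. *Adamts1*, the progesterone-regulated enzyme of ovulation, had the highest level of the group, 58.3 and 57.0, with a log2 ratio of -0.03. *Adamts9* had -0.07 at levels of 25.4 and 24.2. *Adamts15* averaged 2003 and 2753 counts, with a log2 ratio of 0.40 (0.35 to 0.45). The 2 leading enzymes were thus close to equal, and *Adamts20* alone was past 1.5-fold.

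The procollagen N-propeptidases, which trim the amino end of fibrillar procollagens, had unequal values. *Adamts14* had mean counts of 836 and 1220 (log2 ratio 0.48, 0.41 to 0.56). *Adamts2*, the most abundant of them, had -0.07, and *Adamts3* had -0.25. Among the remaining ADAMTS genes, *Adamts7*, a protease of cartilage and vascular smooth muscle, had 3116 and 4595 (log2 ratio 0.50, 0.46 to 0.54). *Adamts10*, which acts on fibrillin microfibrils and had the highest ADAMTS level in *Foxo1f/f* but not in *Foxo1d/d*, where *Adamts1* was above it, had levels of 59.9 and 47.1 (log2 ratio -0.35, -0.38 to -0.32). The ADAMTS levels summed to 245 and 246, so the higher and lower members nearly cancelled. *Adamts7*, *Adamts14* and *Adamts15* lay short of 1.5-fold, which is 0.58 on the log2 scale.

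*Adamtsl2*, an ADAMTS-like protein that binds fibrillin and latent TGF-beta binding protein, was higher. It averaged 94.67 and 221 counts (log2 ratio 1.16, 0.96 to 1.37). It lies beside *Adamts13* on chromosome 2, within chr2:26973361-27108981, and the pair differed in opposite directions. *Adamtsl1* had 2032 and 1566 (log2 ratio -0.44, -0.49 to -0.38). *Adamtsl4*, the most abundant of the group and a fibrillin-binding protein, had -0.08 at levels of 10.5 and 9.91, and *Adamtsl5* had 0.13 at 6.31 and 6.89. *Adamtsl3* had an interval that includes 0, so 1 of the 5 ADAMTS-like genes was past 1.5-fold.

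**Figure D4:**
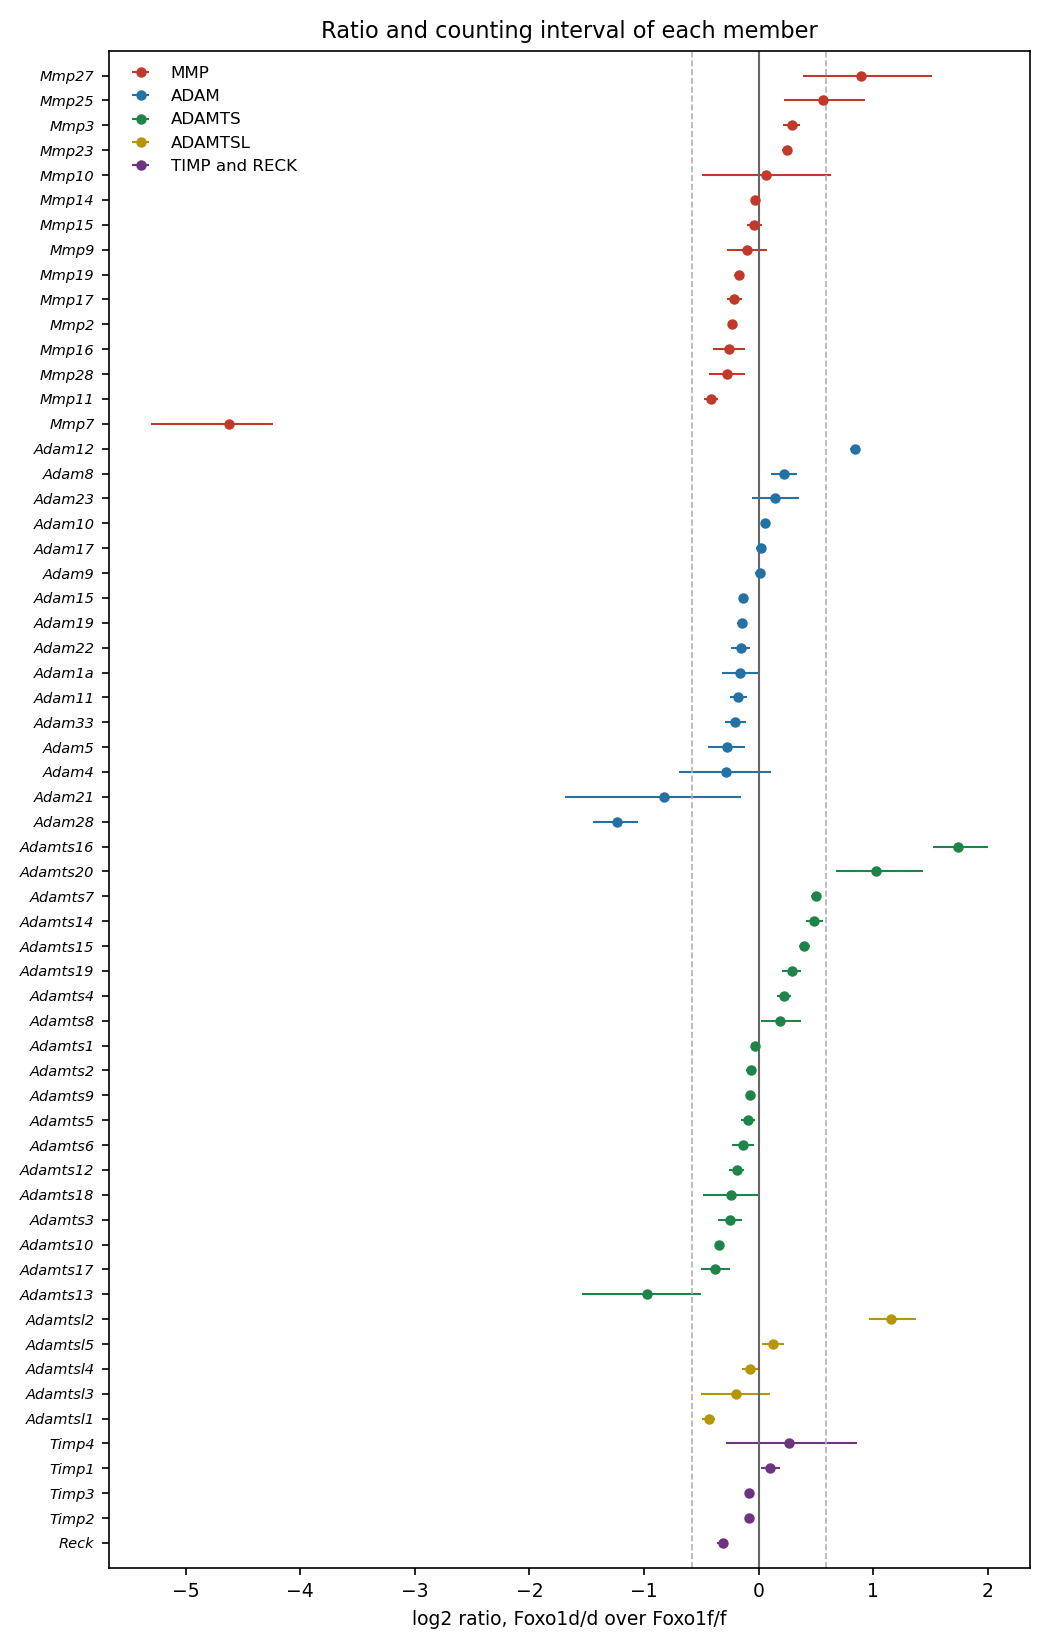
Log2 ratio (*Foxo1d/d* to *Foxo1f/f*, horizontal axis) for each of the 60 members above the count minimum, grouped by family (vertical axis); bars are 95% counting intervals, which leave out differences between pools, and dashed lines mark 1.5-fold. All 5 inhibitors lie between the dashed lines, *Adamts16* is highest at 1.74 and *Mmp7* lowest at -4.62.

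No inhibitor was past 1.5-fold. *Timp2*, which also helps MMP14 to activate MMP2, had mean counts of 14680 and 14482 (log2 ratio -0.08, -0.10 to -0.06). *Timp3*, which binds the matrix and inhibits ADAMs and ADAMTS enzymes as well, had 10859 and 10720, with the same log2 ratio of -0.08. *Timp1*, the soluble inhibitor often linked to steroid and cytokine signals, had 679 and 761, with a log2 ratio of 0.10 (0.02 to 0.19). These 3 genes differed by little, at levels of 151 and 143 for *Timp2*, 88.0 and 83.3 for *Timp3*, and 29.4 and 31.6 for *Timp1*. *Timp4* was sparse, with 16 and 20.33 counts and an interval of -0.28 to 0.86. *Timp4* lies within the gene span of *Syn2*, which had mean counts of 1564 and 2570, and *Timp1* and *Timp3* lie within those of *Syn1* and *Syn3*. Whether exons overlap, or reads were shared with those genes where strand was ignored, was not examined. *Reck* had 2642 and 2218 (log2 ratio -0.31, -0.36 to -0.27) and was the inhibitor farthest from 0. The summed level of the 4 TIMPs over that of the 23 MMPs was 0.443 and 0.464.

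Genes that act with these families were read from 5 fixed lists. Among 18 activators and cofactors, 16 reached the count minimum, none was higher and 1 was lower. That gene was *Pcsk6*, a proprotein convertase, with 1163 and 343 (log2 ratio -1.82, -1.93 to -1.72), while *Furin* and *Pcsk5*, convertases that also cut metalloproteinase precursors, both had -0.03. The median of the list was -0.07. The plasminogen activators *Plau* and *Plat* had -0.14 and 0.26, and the ADAM17 cofactors *Rhbdf1* and *Rhbdf2* had -0.14 and -0.12.

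In the list of 10 genes named other inhibitors, 9 reached the count minimum, 2 were higher and 1 was lower, with a median of -0.12. *A2m*, alpha-2-macroglobulin, a trap for proteases of all classes, had 532 and 3316 (log2 ratio 2.58, 2.50 to 2.66). *Slpi*, a serine protease inhibitor of mucosal surfaces, had 81.67 and 148 (log2 ratio 0.79). *Spock2*, a matrix proteoglycan, had 8933 and 6127 (log2 ratio -0.61, -0.63 to -0.58). Whether its product acts as an inhibitor was not examined, so its value is not read as that of a lower inhibitor. The largest inhibitor difference in these lists was thus in *A2m* and not in a TIMP.

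Of 12 related metalloproteinases, 8 reached it, none was higher and 2 were lower, *Adamdec1* and *Tll1*. *Tll1*, a tolloid-like procollagen C-proteinase, had 958 and 543 (log2 ratio -0.88), while *Bmp1*, the main enzyme of that kind, had 10223 and 9855 (-0.11). Of 7 EGF-family ligands released by ADAMs, 5 reached it, with *Areg* higher (47.33 and 81.67, log2 ratio 0.71) and *Btc* lower (50 and 32.33, -0.67). *Hbegf* had 227 and 233. Of 4 large aggregating proteoglycans, 2 reached it. *Vcan*, the versican substrate of the ADAMTS enzymes, had 4477 and 5363 (log2 ratio 0.20), and *Acan* was higher on 21.33 and 37.33 counts. Each of these lists is small, and the counts are to be read beside the 5.43% and 3.51% of all genes.

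**Figure D5:**
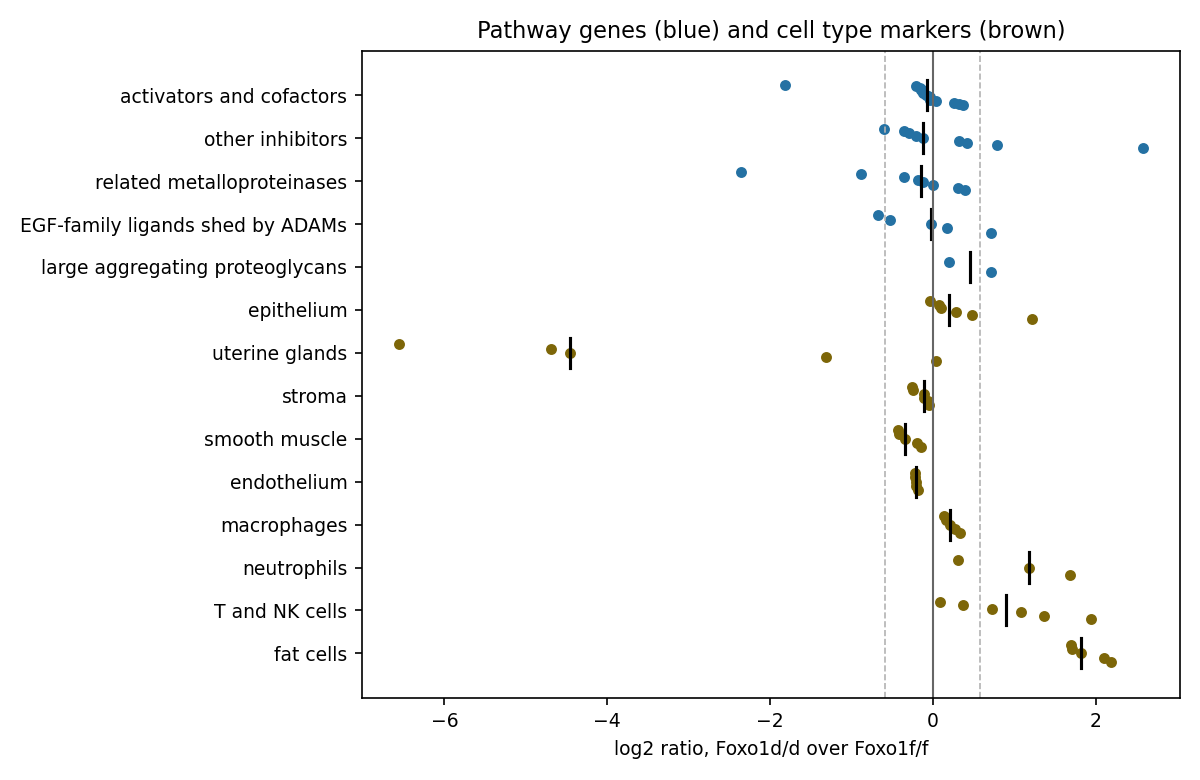
Log2 ratio (*Foxo1d/d* to *Foxo1f/f*, horizontal axis) for the genes above the count minimum in 5 pathway lists (blue) and 9 cell type marker lists (brown); a point is a gene, black bars are medians and dashed lines mark 1.5-fold. *A2m* lies far right among the other inhibitors, 4 of 5 gland markers lie far left, and all 5 fat cell markers lie right of the 1.5-fold line.

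Markers of several cell types differed beside these values, and their part in any metalloproteinase value was not tested. All 5 fat cell markers were higher (log2 ratios 1.70 to 2.19, summed level 10.2 and 36.7 CPM), though *Lep* (7.67 and 28.33 counts) passed the count minimum only through *Foxo1d/d*. Also higher were 4 of 6 T and NK cell markers (57.5 and 84.4) and 2 of the 3 neutrophil markers above the count minimum. The 6 neutrophil markers found summed to 24.1 and 73.2 CPM, of which *Ltf*, lactoferrin, which uterine epithelium also makes, gave 21.4 and 69.1. The other 5 summed to 2.73 and 4.08, with *Ngp* at 0 in *Foxo1f/f*. Of the epithelial markers 1 of 6, *Krt19*, was higher, and their summed level was 578 and 678. No marker of stroma (3948 and 3540), smooth muscle (5447 and 4362), endothelium (1254 and 1081) or macrophages (260 and 307) was past 1.5-fold. Over all genes 5.43% were higher and 3.51% lower.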

How the data were processed

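Whole-uterus RNA was sequenced from 3 libraries of *Foxo1f/f* and 3 of *Foxo1d/d* (TruSeq). Per the paper's methods and the submitters' processing notes, the authors trimmed reads, mapped them with STAR (mm10 in the methods, mm9 in the notes), took out duplicates (Picard), obtained gene counts for RefSeq genes (HTSeq) and ran edgeR between genotypes; versions and strandedness are not given in the sources used here. The authors deposited one table with the mean raw count per gene and genotype; 3 times each mean is a whole number to within 0.001, so summed reads were recovered (78375043 and 81773890). The authors' deposited signed fold change (a score), average log2 CPM, p-value and FDR were not used. The number of other single-sample columns left out was 0.

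No single-library counts were analysed here, so the edgeR test was not run and no SD or p-value is given. The log2 ratio was taken of mean counts plus a pseudocount of 1 over genotype totals; single folds leave the pseudocount out. A call needed 1.5-fold and an average of 10 or more counts over the genotypes, the count minimum. Intervals are 95% Clopper-Pearson from reads summed over the libraries of a genotype, so they cover counting error only and leave out differences between pools. The reads carried no molecular identifiers. Levels used merged exons of GENCODE vM21 transcripts paired with RefSeq, in place of the RefSeq exons planned; all 85 members had a length and a RefSeq position (GRCm38.p6). Promoter windows were RefSeq's. Python 3.11.15, numpy 2.4.6, pandas 2.3.3, scipy 1.17.1 and matplotlib 3.10.9 were used, and the calculation was tested on simulated data. The simulated counts held counting error only, so that test says nothing of differences between pools.

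Named by rule were the called members, the 3 most abundant of each protease family, all TIMPs and *Reck*, and *Foxo1*; genes of the fixed lists may be named as such. Other members were named after their values were seen, to account for each class. The members and lists were chosen with earlier results of these data known. Alternatives covered scaling, pseudocount, count minimum, threshold and length. Protein features were not analysed here.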

Additional observations from a re-analysis of the deposited data

How the results depend on the processing

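The counts of members past 1.5-fold depended on how low-count genes were treated. Of 197 values recomputed, 175 stayed within their limits and 22 moved. The sign differed from the reported value in 6, all of them medians or ratios short of 1.5-fold: with centring, *Adam9* and the median of the somatic ADAM proteases both went from 0.014 to -0.011, the EGF-family ligands went from -0.028 to 0.074 (mean count of at least 50) and 0.176 (above 0), and the other MMPs and other inhibitors went from 0.040 to -0.172 (at least 50) and from -0.115 to 0.101 (above 0). Centring on the median gene shifted values by -0.025 on the log2 scale. That centring, totals without the 100 genes with the most counts, and a pseudocount of 0.1 gave the same 5 higher and 4 lower members. Over all genes these settings gave 5.06% to 5.57% higher and 3.54% to 3.79% lower. Centring moved 4 single values past the lower end of their counting interval (*Mmp14*, *Mmp2*, *Timp2* and *Timp3*), none past 1.5-fold. With a mean count of at least 50, 3 of 52 members were higher and 2 lower, beside 3.81% and 2.58% of all such genes. Medians there were -0.124 for membrane-type MMPs, 0.080 for proteoglycan-cleaving ADAMTS and 0.199 for the large proteoglycans. With any mean count above 0, 11 of 75 members were higher and 7 lower, beside 8.11% and 5.79% of all such genes. Medians there were -0.124 for membrane-type MMPs and 0.571 for other MMPs. At 2-fold, 3 members were higher and 2 lower, beside 1.99% and 1.4% of all genes, and 1 and 2 pathway genes. Where the interval also had to lie beyond 1.5-fold, 4 members were higher and 2 lower, beside 2.91% and 2.13% of all genes. Pathway genes past that limit were 1 higher and 3 lower. *Adam12*, *Adamts16*, *Adamtsl2*, *Mmp7* and *Adam28* were called in each of these settings, except *Adam12* at 2-fold. The causes were not tested beyond the change in genes counted that each setting makes. The length of the longest transcript left the most abundant members of each family as they were. No paired analysis was possible because the table holds genotype means without single libraries, and fits without a replicate were not run for the same reason. Depth limits the genes with few reads, such as *Mmp27*, *Adam21* and *Adamts13*.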

Other observations

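Among members and genes of the pathway lists under the minimum count, 5 had intervals that excluded 0 and are given as values only, chosen after their values were seen. *Mmp12* had 8 (*Foxo1f/f*) and 27 (*Foxo1d/d*) summed reads, a counting interval of 0.52 to 3.04 on the log2 scale. *Adam7* had 11 and 1, an interval of -8.95 to -0.74. *Tll2*, from the list of related metalloproteinases, had mean counts of 12.33 and 5, an interval of -2.34 to -0.46, and *Pappa2*, a protease of IGF-binding proteins, had 11.67 and 6.00, an interval of -1.93 to -0.16. *Bcan*, brevican, from the list of large proteoglycans, had 5 and 10.33, an interval of 0.05 to 1.98.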
